A study of Mus musculus with 10 samples.

Results

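The proteasome is the protease that degrades most ubiquitin-tagged proteins of a cell, and its genes are described here in mouse primary cells of the lymphatic vessel lining (lymphatic endothelial cells, LECs) after knockdown of the VEGF receptor Vegfr2 (gene Kdr). The genes were chosen by symbol: every row of the deposited count table whose symbol is Psm, a letter from a to g and a digit, which gave 50 of 16251 rows. No measured value enters that pattern, but the group was picked with results of this same comparison of siRNA with control known. All values of that comparison are therefore given as description, and the calls support no claim about the group as a whole. Of the 50 genes, 49 passed the filter on low counts. Psmb11, a subunit of the thymus, did not, with 2 counts in all control and 3 in all siRNA libraries together. Psmc3ip is no proteasome gene: it encodes a factor of meiotic recombination and matched by its symbol only.

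The study compared 5 control libraries with 5 libraries of cells given siRNA against Vegfr2, all of mouse primary LECs harvested at 48 h. The siRNA group had received 50 nM of duplex RNA with a transfection reagent. The labels give the control libraries the same treatment tag as the siRNA libraries, name no control siRNA, and do not tie replicates to separate cultures. The p-values therefore reflect sample-to-sample spread alone, possibly of technical origin.

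A proteasome has a barrel-shaped core of stacked rings. Alpha subunits (Psma genes) form the outer gates and beta subunits (Psmb genes) the inner chamber, where only the products of Psmb5, Psmb6 and Psmb7 cut peptide bonds. A regulatory particle caps the barrel: its base holds the ATPases that unfold substrates (Psmc genes), and its lid removes ubiquitin (most Psmd genes). Interferon-induced beta subunits (Psmb8, Psmb9, Psmb10) can replace the standard catalytic ones and make the immunoproteasome, known for cutting peptides for MHC class I, and alternative caps (Psme genes) open the barrel without ubiquitin.

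Kdr, the targeted gene, was at 1328, 1320, 1280, 1259 and 1431 CPM in control and at 191, 196, 200.5, 173 and 167 CPM in siRNA libraries, with no overlap (log2 fold change −2.83, SE 0.059, adjusted p = 3.14e-11; CPM is the count per 1e+06 of the library size scaled by edgeR's TMM factor). Total estimated counts ran from 17946483 to 18239260 per library, and the first principal component, with 75% of the variance, separated the groups with no library apart from its group. The LEC genes Prox1, Lyve1, Flt4 and Reln and the endothelial genes Pecam1, Cdh5, Tek and Emcn were detected throughout, from 103 CPM for Tek in siRNA cells to 5119 CPM for Lyve1 in control cells, and Pdpn was low, at 11.2 and 19.5 CPM. Of the 5 LEC markers 4 were called lower in siRNA cells, where 35.2% of all genes tested were. Their log2 fold changes were −1.06 for Flt4, −0.62 for Reln, −0.26 for Prox1 and −0.24 for Lyve1, and Pdpn was called higher (0.81). Of the 4 endothelial markers Tek (−0.32), Pecam1 (−0.21) and Emcn (−0.21) were called lower, beside the same 35.2% of all genes, and Cdh5 did not pass. In bulk samples fewer cells of a type and less RNA per cell cannot be told apart. The part of these marker levels in those of the proteasome genes was not tested. Of 10 leukocyte markers 6 had a row: Cd68, which other cells also express, fell by 0.40 on the log2 scale, and the other 5 had at most 3 counts in any library. The 5 mesenchymal markers summed to 8.73 to 12.6 CPM in control and 7.19 to 9.33 CPM in siRNA libraries, and the 2 epithelial ones with a row to at most 0.112 CPM.

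The sequences upstream of 3 catalytic subunit genes are shown because their transcripts moved in opposite directions: Psmb5 of the standard core was higher after the siRNA, and Psmb8 and Psmb9 of the immunoproteasome were lower. Each line gives the 250 bases before a RefSeq start of the gene, 5′ to 3′ on the gene's strand, build GRCm38.p6. The Psmb5 window is chr14:54617996-54618245 on the minus strand, the Psmb8 window chr17:34197945-34198194 on the plus strand and the Psmb9 window chr17:34187331-34187580 on the minus strand, where its far end overlaps the start of the neighbouring gene Tap1. Capitals mark matches to 4 words searched on both strands: TGACNNNGC, the antioxidant response element core bound by NFE2L factors; CCAAT; TTCNNNGAA, the STAT site; and GAAANNGAA, an interferon regulatory factor word.
Psmb5: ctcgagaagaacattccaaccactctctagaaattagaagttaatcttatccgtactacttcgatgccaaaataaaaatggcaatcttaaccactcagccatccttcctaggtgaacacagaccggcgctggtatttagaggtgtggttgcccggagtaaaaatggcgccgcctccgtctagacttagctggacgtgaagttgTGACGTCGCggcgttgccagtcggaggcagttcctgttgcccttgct
Psmb8: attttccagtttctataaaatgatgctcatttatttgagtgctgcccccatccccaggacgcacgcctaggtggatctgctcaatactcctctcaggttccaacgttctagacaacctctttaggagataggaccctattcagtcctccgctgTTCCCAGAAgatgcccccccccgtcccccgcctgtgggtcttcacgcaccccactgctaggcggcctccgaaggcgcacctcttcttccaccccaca
Psmb9: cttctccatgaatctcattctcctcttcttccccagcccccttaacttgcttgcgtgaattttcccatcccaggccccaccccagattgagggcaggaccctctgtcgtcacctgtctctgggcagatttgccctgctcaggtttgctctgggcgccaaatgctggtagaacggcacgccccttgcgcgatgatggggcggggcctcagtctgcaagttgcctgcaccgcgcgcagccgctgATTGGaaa

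In Psmb5 the capitals are a TGACNNNGC word 47 bases before the start, in Psmb8 a TTCNNNGAA word 97 bases before it, and in Psmb9 CCAAT on the reverse strand, 8 bases before it. RefSeq windows were found for 42 of the 50 genes, and none for Psma8, Psmb1, Psmb2, Psmb7, Psmc3, Psmd3, Psmd7 and Psmg2. For 10 of the 42 genes a window ends at a RefSeq start inside the annotated span of the gene. Part or all of that window lies within the gene. Of these genes, Psma6, Psmc2 and Psme2 also have a window that lies wholly before the gene. The CCAAT matches of Psma6 and Psmc2 are in that outer window. TGACNNNGC was present in the windows of 5 of the 42 genes (Psmb5, Psmb6, Psmc6, Psmd12 and Psmd9; the Psmb6 match lies within the gene) and in 10.2% of all 32851 windows of that length. CCAAT was present in the windows of 15 of the 42 genes and in 33.8% of all windows. TTCNNNGAA was present in those of Psmb8 and Psmg1 and in 7.02% of all windows, and GAAANNGAA in those of Psmb3, Psmd4 and Psmd9 and in 7.13%. A match describes letters only, and the words were chosen with the calls known.

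Most proteasome genes were slightly higher in the siRNA cells. Of 49 tested genes 42 were called higher and 3 lower (Psmb8, Psmb9 and Psme4; edgeR quasi-likelihood test, Benjamini-Hochberg adjusted p under 0.05), and 4 did not pass (Psmb1, Psmb10, Psme1 and Psme2b). Over all 12161 genes tested 71.3% were called, 36.1% higher and 35.2% lower, so a call by itself is common in this comparison. The median log2 fold change of the 49 genes was 0.20, against −0.00189 over all genes tested. Set against the control mean, the median over the genes ran from 0.178 to 0.220 between single siRNA libraries. Every siRNA library lay above every control library for 34 of the 49 genes (28.8% of all genes tested) and below for 3 (28.2%), and 12 genes overlapped. Both the 42 and the 34 include Psmc3ip, no proteasome gene, and Psma8, which passed the filter on low counts through the siRNA libraries.

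Few of these changes were large. Tested against a fold above 1.2 (edgeR's glmTreat), 11 of the 49 genes passed upward and 1 downward, where 13.9% and 15.8% of all genes did. Those upward were Psmd7, Psmd11, Psmd13 and Psmd14 of the lid, Psmd2 of the base, Psmb6 and Psmb7 of the core, Psme3, Psmg3, Psma8 and Psmc3ip, and Psmb9 was the one downward. Psma8 had so few counts that it passed the filter through the siRNA libraries, where it was higher, and its place among the 11 is not read further.

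**Figure D1:**
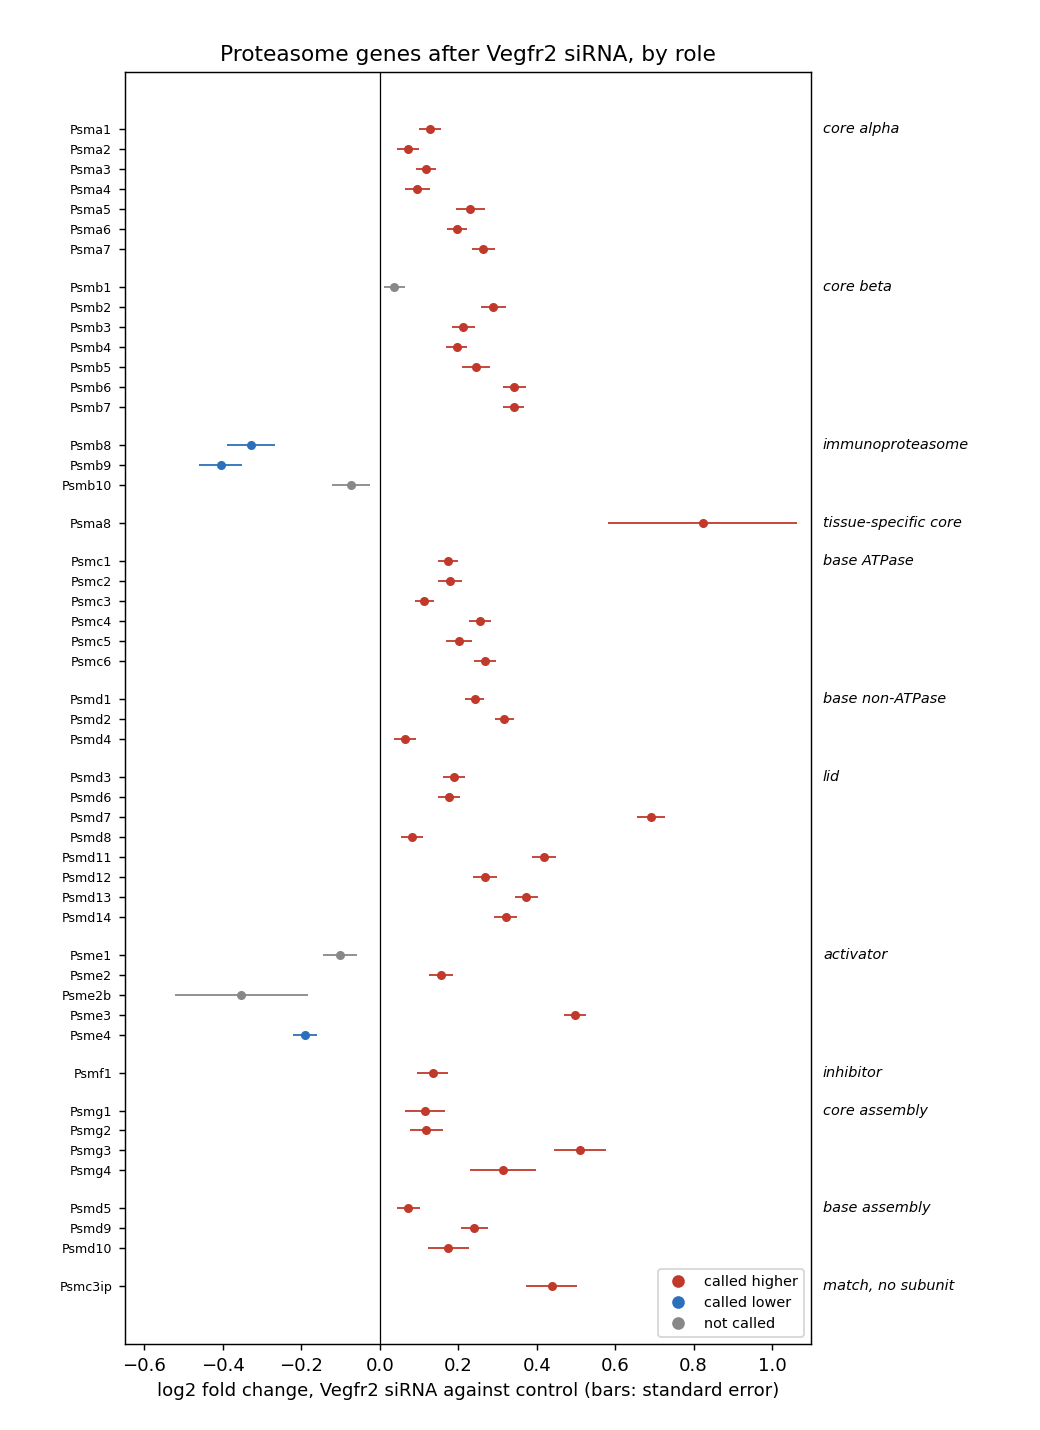
Log2 fold change of siRNA against control (x axis) for the 49 tested genes (y axis), grouped by role, with the standard error as bars and the call as colour. Core, base and lid genes sit right of 0, with Psmd7 farthest right among standard subunits at 0.69, and Psmb8, Psmb9 and Psme4 are the genes called lower.

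The 31 standard subunits of core and regulatory particle that match the symbol pattern summed to 4150 ± 82.6 CPM in control and 4838 ± 81.2 CPM in siRNA libraries (SD, n = 5). Adrm1 of the base and Sem1 of the lid do not match it and are given among the partners below. The siRNA sum was 117% of the control sum, and the ranges, 4049 to 4243 and 4735 to 4953 CPM, did not overlap. Of the 31 genes 30 were called higher (36.1% of all genes tested), 0 lower (35.2%), and Psmb1 did not pass. Their log2 fold changes ran from 0.04 to 0.69, with a median of 0.21, and their coefficient of variation within a group from 1.17% to 6.70%.

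By role, the lid sum in siRNA libraries was 123% of the control sum, that of the base scaffold and receptor genes 118%, that of the beta ring 117%, that of the ATPases 114% and that of the alpha ring 111%. The immunoproteasome sum was 83.2% of its control value, from 128 ± 7.48 to 106 ± 8.23 CPM (SD, n = 5). The groups overlapped for none of these 6 sums. Summed per kilobase of the longest transcript, control cells held 646 CPM per kilobase of alpha, 775 of standard beta and 87.5 of immunoproteasome transcripts. With the median transcript length these sums were 902.3, 799.6 and 156.0, so the order of alpha and beta depends on the length used.

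**Figure D2:**
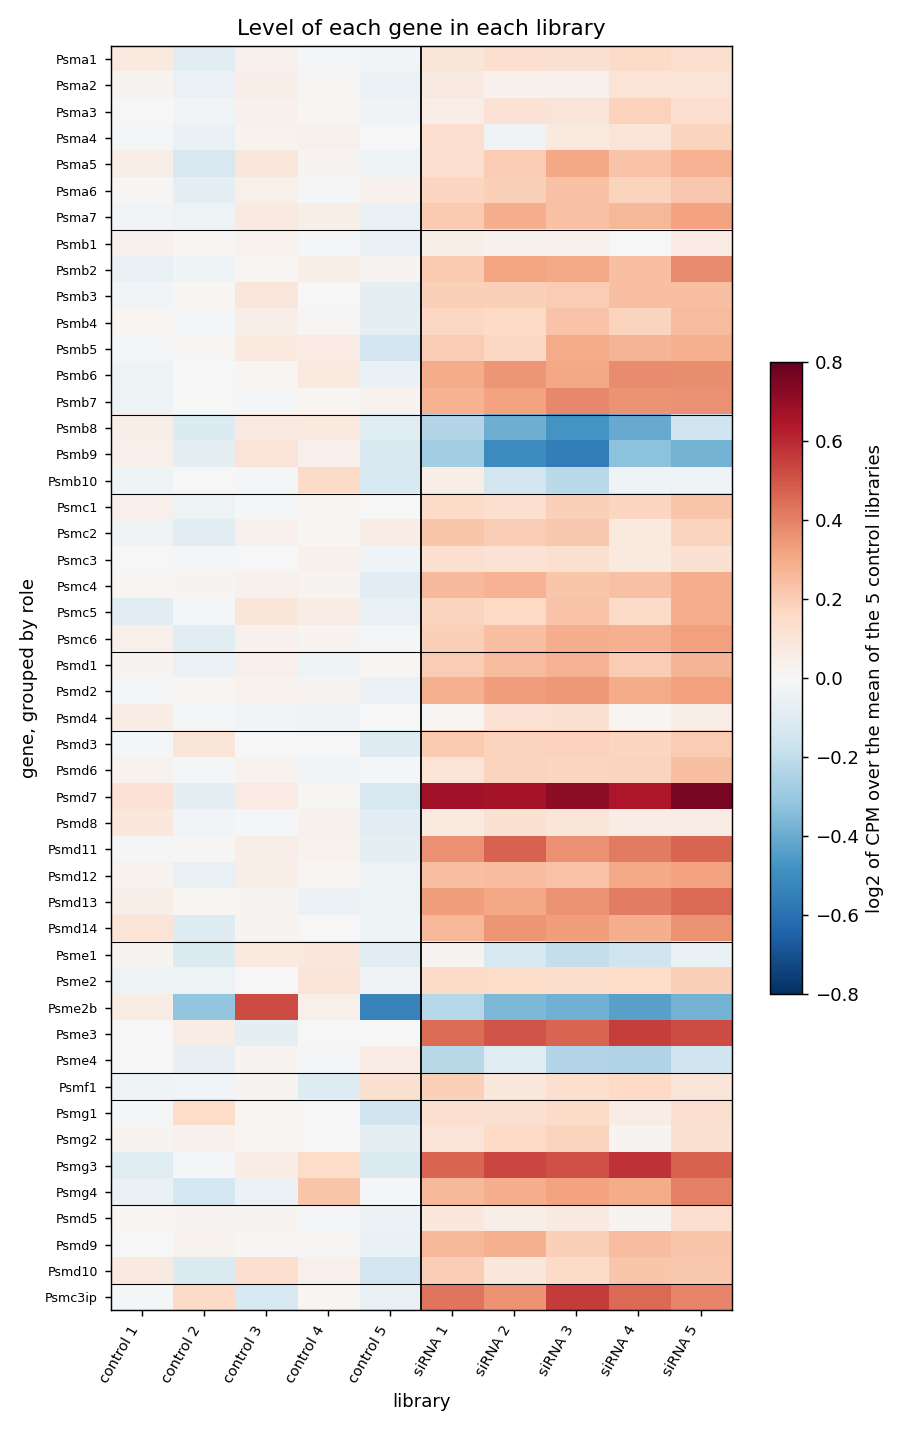
Each row is 1 tested gene (Psma8 is left out for its low counts), each column 1 of the 10 libraries, and colour is the log2 ratio of CPM to the mean of the 5 control libraries. The siRNA columns are red for most core, base and lid rows, most deeply for Psmd7. They are blue for Psmb8, Psmb9 and Psme4, which were called lower, and for Psme2b, which did not pass.

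In the alpha ring all 7 genes were called higher (36.1% of all genes), with log2 fold changes from 0.07 to 0.26 and a median of 0.13. Psma7 was at 102, 100.1, 108, 106 and 99.2 CPM in control libraries 1 to 5 and at 119, 126, 121, 124 and 129 CPM in siRNA libraries 1 to 5. The groups did not overlap (log2 fold change 0.26, SE 0.03, adjusted p = 1.57e-10). Psma2 had the smallest rise of the ring, and was at 132, 126, 135, 131 and 126 CPM in control and at 137, 133, 133, 140.5 and 139.7 CPM in siRNA libraries. Its groups overlapped (log2 fold change 0.07, SE 0.028, adjusted p = 0.0196), and the call was lost with upper-quartile factors, without control replicate 2 and without siRNA replicate 4 or 5 (adjusted p from 0.0506 to 0.0693). Psma4 also overlapped between the groups, and Psma1, Psma3, Psma5 and Psma6 did not.

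In the standard beta ring 6 of 7 genes were called higher (36.1% of all genes). The median log2 fold change was 0.25, and the 3 catalytic genes were among those called. Psmb5, which encodes the chymotrypsin-like subunit (chromosome 14, 54614120 to 54617995), was at 82.9, 84.3, 88.4, 87.4 and 75.1 CPM in control and at 96.3, 93.8, 103, 101 and 102 CPM in siRNA libraries. The groups did not overlap (log2 fold change 0.25, SE 0.036, adjusted p = 2.88e-07).

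Psmb6, which encodes the caspase-like subunit (chromosome 11, 70525324 to 70527858), was at 82.7, 85.0, 86.0, 89.8 and 82.0 CPM in control and at 105, 109, 105, 111 and 110.2 CPM in siRNA libraries. All siRNA libraries were above the controls (log2 fold change 0.34, SE 0.03, adjusted p = 1.34e-13). Psmb7, which encodes the trypsin-like subunit (chromosome 2, 38588046 to 38643952), was at 117, 120.5, 119.8, 122 and 123 CPM in control and at 146, 150.2, 157, 154 and 155 CPM in siRNA libraries. It too showed no overlap (log2 fold change 0.34, SE 0.027, adjusted p = 5.82e-15). Of the exon bases of Psmb5 12.1% and of Psmb7 11.8% are shared with Mir686 and Nek6, and as no strand setting is stated, reads of such stretches cannot be told apart.

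Of the beta genes that do not cut, Psmb2, Psmb3 and Psmb4 rose by 0.29, 0.21 and 0.20 on the log2 scale. Psmb1 was at 135, 133, 135, 131 and 127 CPM in control and at 137, 135, 135, 132 and 138 CPM in siRNA libraries. These values overlap (log2 fold change 0.04, SE 0.027, adjusted p = 0.215).

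The immunoproteasome genes were lower or did not pass. Psmb8, the counterpart of Psmb5 (chromosome 17, 34198195 to 34201454), was at 66.0, 59.3, 67.3, 67.5 and 59.9 CPM in control and at 54.4, 48.9, 46.0, 48.3 and 57.3 CPM in siRNA libraries. Every siRNA library was below every control library (log2 fold change −0.33, SE 0.061, adjusted p = 0.000248). Psmb9, the counterpart of Psmb6 (chromosome 17, 34182030 to 34187330), was at 28.3, 26, 29.5, 28.3 and 25.3 CPM in control and at 22.7, 19.3, 18.7, 21.9 and 21.1 CPM in siRNA libraries. Its groups did not overlap either (log2 fold change −0.41, SE 0.054, adjusted p = 1.16e-08).

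Psmb10, the counterpart of Psmb7 (chromosome 8, 105935728 to 105938392), was at 35.6, 36.4, 36.3, 40.6 and 33.6 CPM in control and at 37.9, 32.9, 31.4, 35.6 and 35.8 CPM in siRNA libraries. Control and siRNA values overlap (log2 fold change −0.07, SE 0.049, adjusted p = 0.188). Of the exon bases of Psmb8 14.7% are shared with Gm20496, and of Psmb9 5.79% with Tap1.

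**Figure D3:**
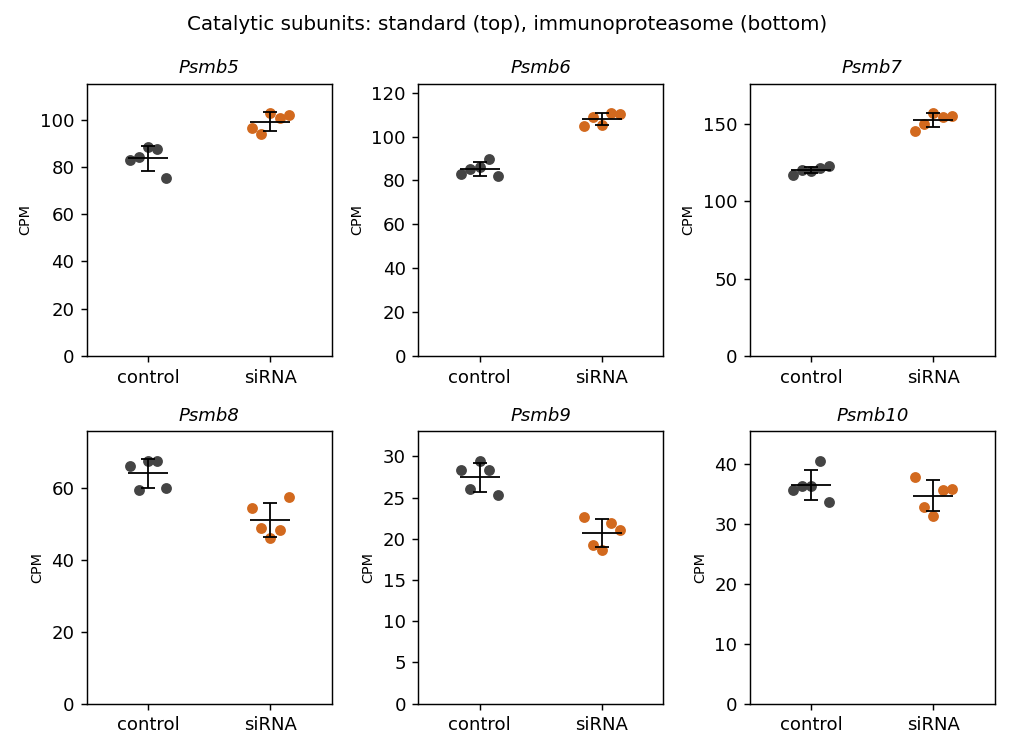
CPM (y axis, from 0) of the 6 catalytic subunit genes in each control and siRNA library (points), with mean and SD. The siRNA points lie above the control points for Psmb5, Psmb6 and Psmb7, below them for Psmb8 and Psmb9, and among them for Psmb10.

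Per kilobase of transcript, each inducible subunit gene stood lower against its standard counterpart in the siRNA cells. The level of Psmb8 was 42.3% ± 2.14 in control and 28.4% ± 2.85 in siRNA libraries (SD, n = 5) of that of Psmb5. The level of Psmb9 was 19.1% ± 1.08 in control and 11.3% ± 0.980 in siRNA libraries (SD, n = 5) of that of Psmb6. The level of Psmb10 was 26.8% ± 1.88 in control and 20.2% ± 1.95 in siRNA libraries (SD, n = 5) of that of Psmb7. In none of the 3 pairs did the groups overlap, and in the last pair Psmb7 was higher while Psmb10 did not pass its own test. The percentages depend on the transcript length: with the median in place of the longest annotated transcript, Psmb8 was 69.4% and 46.6% of Psmb5, and Psmb9 48.7% and 29.0% of Psmb6. The siRNA ratio as a percent of the control ratio does not depend on it, and was 67.2% for Psmb8, 59.5% for Psmb9 and 75.2% for Psmb10.

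**Figure D4:**
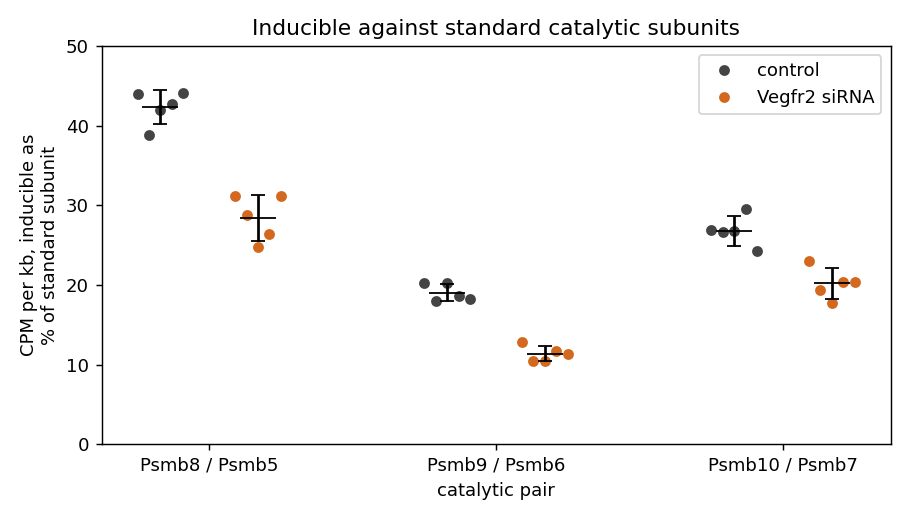
Level per kilobase of each inducible subunit gene as a percent of its standard counterpart (y axis, from 0) in each control and siRNA library (points), with mean and SD. The siRNA points lie below the control points in all 3 pairs, with means of 42.3% and 28.4% for Psmb8 over Psmb5.

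Psmb8 and Psmb9 flank Tap1, the gene of a peptide transporter for class I loading, in the MHC region of chromosome 17. Between the RefSeq spans of Psmb9 and Tap1 lie 225 bases, and between those of Tap1 and Psmb8 969 bases. The exon bases shared by Psmb9 and Tap1, given above, come from GENCODE, whose gene models differ from RefSeq's. Tap1 was at 88.3, 85.2, 90.6, 97.7 and 87.6 CPM in control and at 113, 99.0, 87.4, 101 and 109 CPM in siRNA libraries. Its groups overlapped and the log2 fold change was positive (log2 fold change 0.18, SE 0.07, adjusted p = 0.0413), but the call was lost with upper-quartile factors, with no filter on low counts, without control replicate 1, 2, 3 or 5 and without siRNA replicate 1, 2, 4 or 5 (adjusted p from 0.0511 to 0.0887). Tap2, on the far side of Psmb8 (chromosome 17, 34204479 to 34216321), was called lower with no overlap (log2 fold change −0.34, SE 0.037, adjusted p = 8.63e-11). Tap2 was named after its values were seen.

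Of 15 genes of interferon signalling and class I presentation, all tested, 3 were called higher, 6 lower and 6 did not pass, where 36.1% of all genes were called higher and 35.2% lower. The median log2 fold change was −0.07. Those higher were Tap1, Nlrc5 (0.16) and Erap1 (0.14), the latter 2 named after their values were seen. Irf1, a transcription factor of the interferon response, was at 46.7 ± 2.65 CPM without and 35.5 ± 2.38 CPM with the siRNA (SD, n = 5), with no overlap (log2 fold change −0.39, adjusted p = 2.95e-10). The part of this level in those of Psmb8 and Psmb9 was not tested.

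The tissue-specific core genes were near 0. Psma8, a testis alpha subunit gene, was at 0.447, 0.445, 0.834, 0.607 and 0.785 CPM in control and at 1.26, 0.987, 1.26, 1.1 and 0.936 CPM in siRNA libraries, with 56 counts summed over control and 101 over siRNA libraries. The groups did not overlap (log2 fold change 0.82, SE 0.24, adjusted p = 0.00212), but the gene passed the filter through the siRNA libraries, so its call is not read further.

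All 6 base ATPases, which thread substrates into the core, were called higher (36.1% of all genes), with log2 fold changes between 0.11 and 0.27. No gene of the 6 overlapped between the groups. Of all genes tested, 28.8% had every siRNA library above every control library. Psmc6 was at 172, 158, 172, 171 and 166 CPM in control and at 192, 198, 206, 204 and 211 CPM in siRNA libraries (log2 fold change 0.27, SE 0.028, adjusted p = 1.34e-11). Psmc3, with the smallest change of the 6, was at 217, 215, 217, 221 and 211 CPM in control and at 237, 234, 236, 228 and 235 CPM in siRNA libraries (log2 fold change 0.11, SE 0.024, adjusted p = 5.08e-05).

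Psmd2, a scaffold gene of the base, had the highest control mean in CPM of all 50 genes, and was at 297, 304, 307, 305 and 291 CPM in control and at 366, 379, 382, 369.8 and 378 CPM in siRNA libraries. The groups lay apart (log2 fold change 0.32, SE 0.024, adjusted p = 9.25e-16), and Psmd1, the other scaffold gene, rose by 0.24 on the log2 scale. Psmd4, which encodes a ubiquitin receptor, was at 139, 132, 132, 131 and 134 CPM in control and at 134, 145, 145, 135 and 138 CPM in siRNA libraries. Here the groups overlap (log2 fold change 0.06, SE 0.028, adjusted p = 0.0388), and the call was lost with upper-quartile factors, with a filter at a mean of 5 CPM, with the replicate number as a block, with DESeq2, without control replicate 2, 3 or 4 and without siRNA replicate 2 or 3 (adjusted p from 0.0523 to 0.136).

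The lid held the widest range of rises among standard subunits, with log2 fold changes from 0.08 to 0.69 and a median of 0.30. All 8 lid genes of the symbol pattern were called higher (36.1% of all genes tested). Sem1, a lid gene outside that pattern, is not in these counts and is given among the partners below. Psmd7, whose product pairs with the deubiquitinase Psmd14 (chromosome 8, 107580380 to 107588482), was at 80, 70.5, 77.3, 74.3 and 67.7 CPM in control and at 118, 118, 121, 116 and 125 CPM in siRNA libraries. Every siRNA library was far above the highest control, a rise of 1.62-fold (log2 fold change 0.69, SE 0.035, adjusted p = 4.95e-19). Psmd14, which cuts ubiquitin from substrates, was at 143, 123, 134, 133 and 129 CPM in control and at 159, 169, 167, 162 and 169.7 CPM in siRNA libraries, also with no overlap (log2 fold change 0.32, SE 0.03, adjusted p = 2.26e-12).

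The level of Psmd7 per kilobase was 54.4% ± 1.98 in control and 70.4% ± 1.82 in siRNA libraries (SD, n = 5) of that of Psmd14, with no overlap. The next rises of the lid were those of Psmd11 (0.42), a scaffold subunit gene, Psmd13 (0.37) and Psmd12 (0.27), then Psmd3 (0.19) and Psmd6 (0.18), all log2 fold changes. Of the exon bases of Psmd13 10.1% are shared with Sirt3. Psmd8 was at 148, 138, 138, 143 and 131 CPM in control and at 147, 152, 149, 146 and 145 CPM in siRNA libraries. The low end of the siRNA group overlaps the controls (log2 fold change 0.08, SE 0.028, adjusted p = 0.00912).

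The activators diverged. Psme3, the gene of the nuclear activator PA28 gamma (chromosome 11, 101316213 to 101323537), was at 114, 119, 108, 114 and 114 CPM in control and at 155, 162, 157, 167 and 163 CPM in siRNA libraries. The groups lay apart, with a rise of 1.41-fold (log2 fold change 0.50, SE 0.028, adjusted p = 7.33e-20). Psme4, the gene of the nuclear activator PA200 (chromosome 11, 30771775 to 30881150), was at 122, 117, 124, 121 and 127 CPM in control and at 105, 114, 104, 103 and 109 CPM in siRNA libraries. Every siRNA library was below every control library (log2 fold change −0.19, SE 0.03, adjusted p = 4.44e-07).

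The interferon-inducible activator is built from the products of Psme1 and Psme2, both on chromosome 14. Psme1 was at 107, 97.7, 111, 112 and 99.3 CPM in control and at 107, 96.5, 92.1, 94.2 and 102 CPM in siRNA libraries. These values overlap (log2 fold change −0.10, SE 0.044, adjusted p = 0.0518), and the gene was called lower with RLE factors, with upper-quartile factors, with no filter on low counts, with a filter at a mean of 5 CPM, with the replicate number as a block, with DESeq2, without control replicate 2 or 5 and without siRNA replicate 1 (adjusted p from 0.00301 to 0.0431). Psme2 was at 79.1, 78.8, 81.4, 87.1 and 79.7 CPM in control and at 90.2, 89.9, 89.5, 90.1 and 92.8 CPM in siRNA libraries. Its siRNA libraries were all above the controls (log2 fold change 0.16, SE 0.031, adjusted p = 2.09e-05), and the level of Psme1 per kilobase was 112% ± 5.06 in control and 93.9% ± 5.25 in siRNA libraries (SD, n = 5) of that of Psme2. With the median transcript length these ratios were 144.9% and 121.3%, so which of the pair is higher in siRNA cells depends on the length.

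Psme2b, a near copy of Psme2, was at 2.12, 1.64, 2.92, 2.10 and 1.41 CPM in control and at 1.74, 1.59, 1.56, 1.51 and 1.57 CPM in siRNA libraries. The control and siRNA ranges overlap (log2 fold change −0.35, SE 0.17, adjusted p = 0.0661), and the gene was called lower without control replicate 2 or 5 (adjusted p from 0.0171 to 0.0395). Its estimated counts were fractional in all 10 libraries and those of Psme2 in 9, so the split of reads between this pair is uncertain.

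**Figure D5:**
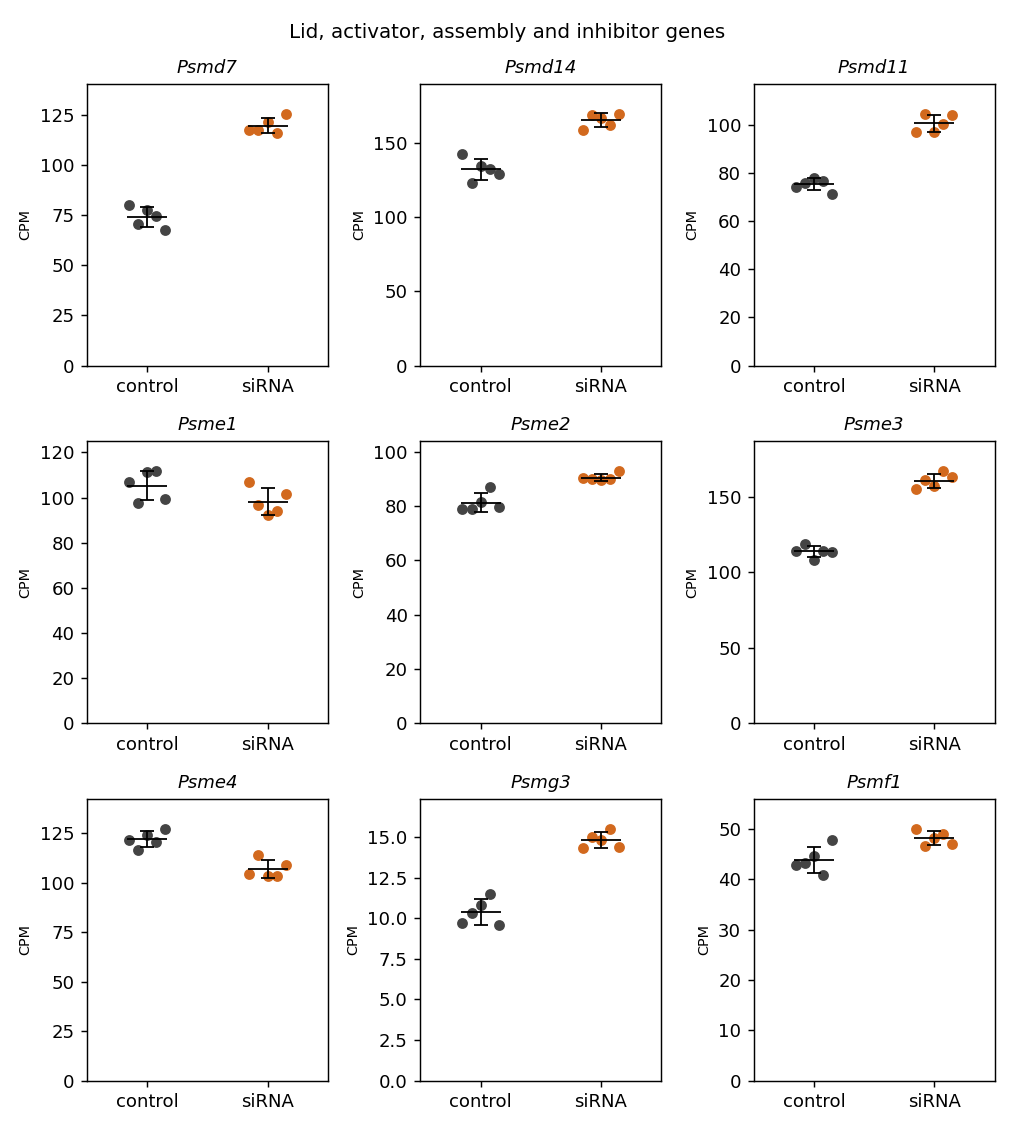
CPM (y axis, from 0) of 9 lid, activator, assembly and inhibitor genes in each control and siRNA library (points), with mean and SD. The siRNA points of Psmd7, Psme3 and Psmg3 lie well above the control points, those of Psme4 below, and those of Psme1 and Psmf1 overlap them.

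Of the genes that assemble the core, Psmg3 was at 9.68, 10.3, 10.8, 11.5 and 9.59 CPM in control and at 14.3, 15, 14.8, 15.5 and 14.4 CPM in siRNA libraries. The groups did not overlap, with a rise of 1.42-fold (log2 fold change 0.51, SE 0.066, adjusted p = 4.29e-09), and its partner Psmg4 rose by 0.31 on the log2 scale (adjusted p = 0.000989). Of the exon bases of Psmg3 9.68% are shared with Gm26938. Psmg1, of the other chaperone pair, was at 21.7, 24.2, 22.1, 21.9 and 19.6 CPM in control and at 23.9, 23.8, 24.3, 22.8 and 23.9 CPM in siRNA libraries. The values of both groups overlap (log2 fold change 0.11, SE 0.051, adjusted p = 0.0431), and the call was lost with upper-quartile factors, with a filter at a mean of 5 CPM, with DESeq2, without control replicate 1, 3, 4 or 5 and without siRNA replicate 1, 2, 3 or 5 (adjusted p from 0.0509 to 0.166). Psmg2, its partner, rose by 0.12 with overlapping groups (adjusted p = 0.0112).

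Of the chaperone genes of the base, Psmd9 was at 46.2, 47.2, 46.6, 46.6 and 44.5 CPM in control and at 55.5, 56.2, 52.7, 54.8 and 53.8 CPM in siRNA libraries. The groups did not overlap (log2 fold change 0.24, SE 0.035, adjusted p = 8.26e-08), and 25.5% of its exon bases are shared with Gm26745. Psmd5 was at 100.4, 101, 101, 98.9 and 96.5 CPM in control and at 105, 103, 104, 101 and 109 CPM in siRNA libraries. Its siRNA libraries were above the controls by little (log2 fold change 0.07, SE 0.029, adjusted p = 0.0225), and the call was lost with upper-quartile factors, without control replicate 5 and without siRNA replicate 5 (adjusted p from 0.0531 to 0.0867). Psmd10, also known as gankyrin, rose by 0.18 with overlapping groups (adjusted p = 0.0028).

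Psmf1, the gene of an inhibitor of the core, was at 42.8, 43.3, 44.6, 40.9 and 47.8 CPM in control and at 50.0, 46.6, 48.2, 48.9 and 47.0 CPM in siRNA libraries. These values overlap (log2 fold change 0.13, SE 0.04, adjusted p = 0.00252). Psmc3ip, the recombination factor, was at 11.7, 13.1, 10.8, 11.9 and 11.3 CPM in control and at 15.8, 15.1, 17.3, 16.1 and 15.4 CPM in siRNA libraries. The groups did not overlap (log2 fold change 0.44, SE 0.064, adjusted p = 7.06e-08), and 21.2% of its exon bases are shared with Mlx.

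Most proteasome partners outside the symbol pattern were also slightly higher. Of 31 partners 30 had a row and were tested: 23 were called higher, 6 lower (36.1% and 35.2% of all genes) and Ubqln2 did not pass, with a median log2 fold change of 0.15. Adrm1, the gene of a ubiquitin receptor of the base, was at 81.4 ± 3.22 CPM without and 101 ± 2.64 CPM with the siRNA (SD, n = 5), with no overlap (log2 fold change 0.31, adjusted p = 5.62e-12). Sem1, of the lid, was at 80.6 ± 3.95 CPM without and 84.8 ± 3.19 CPM with the siRNA (SD, n = 5). Its groups overlapped (log2 fold change 0.07, adjusted p = 0.0469), and the call was lost with RLE factors, with upper-quartile factors, with a filter at a mean of 5 CPM, with DESeq2, without control replicate 1, 2 or 4 and without siRNA replicate 3, 4 or 5 (adjusted p from 0.0538 to 0.175). Pomp, the gene of the core maturation factor, rose by 0.25 on the log2 scale (adjusted p = 1.4e-10).

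Nfe2l1, a transcription factor gene known for raising proteasome genes when the proteasome is inhibited, was at 193 ± 4.96 CPM without and 218 ± 5.18 CPM with the siRNA (SD, n = 5), with no overlap (log2 fold change 0.18, adjusted p = 4.98e-08). Its relative Nfe2l2 rose by 0.08 (adjusted p = 0.00323). Among the other partners with the smallest adjusted p were the proteasome-bound thioredoxin gene Txnl1 (0.32), the shuttle gene Ubqln1 (0.30) and the ubiquitin-activating enzyme gene Uba1 (0.26), as log2 fold changes. Partners called lower, named after their values were seen, included Rps27a (−0.08), a ubiquitin fusion gene, the activating enzyme gene Uba6 (−0.18), the glycanase gene Ngly1 (−0.14) and the adaptor gene Ecpas (−0.15). Ubb, a polyubiquitin gene, rose by 0.06 (adjusted p = 0.0179).

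Rises of this size were also present in other complexes. In the CCT chaperonin, which folds actin and tubulin, 7 of 8 genes were called higher (36.1% of all genes) and Cct4 did not pass, with a median log2 fold change of 0.34. In the COP9 signalosome, whose subunits are related to those of the lid, 8 of 9 genes were called higher, beside the same 36.1%, and Cops3 did not pass, with a median of 0.14. The difference between these complexes and the proteasome was not tested.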

How the data were processed

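Poly(A)-selected RNA was sequenced from 10 libraries, grouped by their titles (5 control, 5 siRNA). Values in the table deposited by the authors are estimated counts without normalization, of which 10.5% to 11.3% in a library are fractional. The submitters' processing notes list HISAT2 2.2.1, Bowtie2 2.4.5, RSEM 1.3.1 and GRCm38.p6. What each did, which annotation was used and whether strand was counted is not given in the sources used here.

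Estimated counts were rounded and tested over the whole table in R 4.3.3 by edgeR 4.0.16: filterByExpr at minimum count 10 (12161 genes tested, 4090 left out), TMM factors, robust quasi-likelihood fit on group, Benjamini-Hochberg adjustment, threshold 0.05. The standard error is the size of the log2 fold change over the square root of the F statistic. CPM were computed from unrounded values. Levels per kilobase use the longest protein-coding transcript in GENCODE M21. Coordinates and upstream sequences are RefSeq's for GRCm38.p6. Alternatives were other scalings and filters, DESeq2 1.42.0, limma-voom 3.58.1, glmTreat, a replicate block, each library left out and median transcript length. The edgeR fit was tested on simulated data. No 2 libraries of a group were as alike as sampling noise alone would make them (lowest chi-square over its degrees of freedom 1.50).

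The genes, lists, roles and motifs were chosen with earlier results of these data known. Every library's value is given for Psmb5 to Psmb10 and, in each role, for the genes with the largest and the most negative log2 fold change; Psmd14, Psme1, Psme2, Psme4, Tap1 and Kdr were added. Of the partners, 5 preset ones and those of the 4 others with the smallest adjusted p that can be named are given; values of some listed genes are not reported here.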

Additional observations from a re-analysis of the deposited data

Results flagged for a closer look

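Over 62 genes and both groups, 124 sets of 5 libraries were checked for a single library far from the other 4, which chance gives in about 1 of 20 sets, and 2 were found. Psmc4, a base ATPase gene, was at 98.6 CPM in control library 5, against 106.3 to 107.5 CPM in the other control libraries. Psme2 was at 92.8 CPM in siRNA library 5, against 89.5 to 90.2 CPM in the other siRNA libraries. Both genes kept their call as higher without that library.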

How the results depend on the processing

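The 42 genes called higher were 38 to 42 under the other scalings, filters and tools and 39 to 41 with 1 library left out. The 3 called lower were 3 or 4 under the other scalings, filters and tools and 3 to 5 with 1 library left out, with 5 without control replicate 2 and without control replicate 5, where Psme1 and Psme2b were added. The median log2 fold change ran from 0.180 (upper-quartile factors) to 0.203 (no filter), and from 0.182 to 0.211 with 1 library left out; all genes called with 1 library left out numbered 8437 to 8549. Against a fold above 1.2 (glmTreat) 11 genes were higher, 1 lower and 3601 of all genes were called, in place of 8668, since that test asks for a larger change. Of 1114 comparisons of 62 genes over 18 settings, 1014 kept their call, 89 lost it, 11 gained one and 0 turned sign. Same-numbered libraries did not deviate together (correlations from −0.0745 to 0.0198). The check cannot exclude a small effect that same-numbered libraries share. With a replicate block 41 genes were higher and 4 lower. Median in place of longest transcript length moved each sum per kilobase, for control and siRNA cells, to 902.3 and 1007 for the alpha ring, 799.6 and 948.2 for the standard beta ring, 156.0 and 126.4 for the immunoproteasome, 559.3 and 637.5 for the ATPases, 623.2 and 752.1 for the other base genes, 681.6 and 838.0 for the lid, 601.7 and 647.2 for the activators, 77.6 and 90.5 for core assembly and 119.0 and 134.6 for base assembly. Depth limits the genes of a few CPM such as Psme2b and Psmg4, whose standard errors are among the widest.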
